A study of Rattus norvegicus with 24 samples.

Results

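Rats that had eaten rotenone for 14 days were compared with rats on the control diet of the same day, 4 against 4, which are 8 of the 24 brain stem arrays. The members were taken by the treatment and day in the array titles, and all 68842 transcript clusters other than control probe sets were analysed. A transcript cluster groups the probes of 1 gene or other transcript, and its value is given here as log2 of the normalized intensity. All rats were male RccHan Wistar animals, 7 to 8 weeks old when they were assigned to the groups, and each array held the brain stem RNA of 1 rat. Chow with 400 ppm rotenone or with none (0 ppm) was given for 1, 3 or 14 days. Rats of day 14 were therefore older at necropsy than those of the earlier days. No genotype was altered. Rotenone was mixed into food that the rats ate freely, so the dose of a single rat was not set. The rats were bled out under isoflurane before the tissue was taken. The hour of necropsy is not given in the sources used here.

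Rotenone blocks complex I of the mitochondrial respiratory chain, the entry point for electrons from NADH, and it also binds tubulin. The brain stem holds the motor and autonomic nuclei and long myelinated tracts, and it needs a steady supply of energy. Its tissue also contains blood vessels, and red cells and reticulocytes in them carry globin mRNA. Oligodendrocytes, which form the myelin, arise from precursor cells that persist in the adult brain and pass through a stage marked by the receptor Gpr17. Myelin is rich in cholesterol, most of which the brain makes itself.

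At day 14, 25 of the 68842 clusters passed the limma test, which is 0.0363% of all clusters, at an adjusted p under 0.05. Of these, 22 were lower in the treated rats (0.032%) and 3 were higher (0.00436%). The groups did not overlap in any of the 25, against 4.47% of all clusters, but the 25 had been chosen on these same values. Counted once for each gene, 14 of 22093 genes passed (0.0634%), 13 lower (0.0588%) and 1 higher (0.00453%), and the groups did not overlap in 6.24% of all genes. The lower genes were 4 globins, Capn6, Gpr17, P4ha1, Mpzl1, Bmal1, Abhd15, Slc15a4, Lgi4 and Tnr, and the higher gene was Znf750. These calls borrow the spread within all 6 groups. With the 8 arrays of day 14 alone, limma called 0 clusters, with 4877 at an unadjusted p under 0.05 against 5451 (7.92%) in the fit of all arrays. It also called 0 without control rat 3, control rat 4, treated rat 3 or treated rat 4 of day 14, and 7 without treated rat 2.

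The arrays of both groups held brain stem transcripts. The hindbrain list, which includes Hox genes and cholinergic and glycinergic genes, had a mean between 8.12 and 8.89 in the controls and between 8.05 and 8.72 in the treated rats. Of its 15 measured genes, 0 passed the test, 0 had an unadjusted p under 0.05, and the median difference was -0.07, which turned to 0.01 on the values as deposited and to 0.10 without treated rat 2. Tissue next to the brain stem was present to different degrees. The choroid plexus list had means of 6.26, 6.73, 6.51 and 6.12 in control rats 1 to 4, and of 8.55, 6.16, 7.35 and 6.19 in treated rats 1 to 4. Ttr, which encodes transthyretin and is a defining transcript of that tissue, was at 16.65 and 15.01 in treated rats 1 and 3, and at 8.48 and 7.93 in treated rats 2 and 4. The controls lay between 7.51 and 12.47. Kl, the gene of klotho, was at 12.72 and 8.80 in treated rats 1 and 3 and between 5.25 and 6.66 in the other 6 rats. The cerebellum list was highest in control rat 4, with a mean of 8.83, and lay between 8.02 and 8.25 in the other 7 rats. Elsewhere in the series it reached 11.74. The median deposited intensity of the arrays was 70.7 to 80.0 in the controls and 73.8 to 82.6 in the treated rats.

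RefSeq promoters of the GRCr8 assembly were found for 12 of the 14 genes past the test. They were not measured on the array. An alpha and 2 beta globins past the test are shown as examples of the globins, Hbbl1 being nearly identical to Hbb-b1, and Bmal1 because it was the clock gene past the test. Each is the 250 bases before the start of transcription, 5′ to 3′ on the strand of the gene. Capitals in the globins mark CACCC, a box bound by the erythroid factor Klf1, and TATAAA, the TATA box. Capitals in Bmal1 mark TAGGTCA, the element bound by the receptors ROR and REV-ERB. These 3 motifs were chosen after the values had been seen.
Hba-a1, chr10:15842581-15842830, minus strand: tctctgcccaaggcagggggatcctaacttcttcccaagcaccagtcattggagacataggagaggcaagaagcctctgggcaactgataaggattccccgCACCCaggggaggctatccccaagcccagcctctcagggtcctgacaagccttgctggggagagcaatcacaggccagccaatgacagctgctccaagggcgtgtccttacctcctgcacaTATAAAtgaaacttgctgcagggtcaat
Hbb-b1, chr1:167643521-167643770, minus strand: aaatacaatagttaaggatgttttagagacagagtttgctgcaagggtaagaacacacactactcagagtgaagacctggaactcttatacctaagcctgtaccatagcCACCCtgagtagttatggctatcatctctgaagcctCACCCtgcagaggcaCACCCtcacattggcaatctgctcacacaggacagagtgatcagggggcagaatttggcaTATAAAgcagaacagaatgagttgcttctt
Hbb-bs, chr1:167631631-167631880, minus strand: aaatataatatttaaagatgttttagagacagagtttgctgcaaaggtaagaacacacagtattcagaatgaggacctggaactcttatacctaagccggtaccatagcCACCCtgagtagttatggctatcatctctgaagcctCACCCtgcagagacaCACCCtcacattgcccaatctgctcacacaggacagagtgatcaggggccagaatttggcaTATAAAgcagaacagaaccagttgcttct
Bmal1, chr1:176766078-176766327, plus strand: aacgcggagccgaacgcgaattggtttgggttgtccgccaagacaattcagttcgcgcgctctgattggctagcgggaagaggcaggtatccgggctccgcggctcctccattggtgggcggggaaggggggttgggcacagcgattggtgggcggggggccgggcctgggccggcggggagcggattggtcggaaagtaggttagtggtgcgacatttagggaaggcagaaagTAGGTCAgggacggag
Searched on both strands, TATAAA occurred in 12.9% of all 33469 promoters of this length, CACCC in 49.2% and TAGGTCA in 2.26%. CACCC was not particular to the globins. Among the other genes past the test it matched 4 times in P4ha1 and 1 time each in Capn6, Gpr17 and Abhd15. It matched 0 times in Bmal1, Mpzl1, Slc15a4 and Tnr. Hbb-b1 and Hbb-bs were 94.0% identical over these bases, and Hbb-b1 and Hbbl1 were 96.8% identical, whereas Hba-a1 and Hbb-b1 shared 60.8%. The E-box CACGTG (5.59% of promoters), the D-box TTATGTAA (0.828%) and the hypoxia element ACGTG (16.6%) were not found in this window of Bmal1 or P4ha1. A match is a description of the letters and not a measured binding site.

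Among the genes, transcripts of the blood pigment differed most, and 4 globin genes passed the test and were 22.0 to 31.7 times lower in the treated group, with a wide spread from rat to rat. Hba-a1, an alpha chain of hemoglobin, was at 16.52, 17.14, 17.55 and 17.38 in the controls and at 15.61, 12.45, 12.22 and 9.35 in the treated rats. Treated rat 1 lay less than 1 unit below the lowest control and treated rat 4 far below every other animal. The difference was -4.74 ± 0.76 (SE) on the log2 scale, or 26.7 times lower (limma, adjusted p = 0.0241). It was -3.73 without treated rat 4 and -5.81 without treated rat 1, and in the other 3 globins past the test these rats also set the range without 1 array of day 14 (from -5.75 to -3.71 over the 3 genes).

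The beta chains had the same order of treated rats. Hbb-b1 was at 13.36, 13.95, 15.07 and 14.74 in the controls and at 11.42, 9.71, 8.79 and 7.26 in the treated rats, a difference of -4.99 ± 0.81 (limma, adjusted p = 0.0241). In Hbbl1, a further beta-type globin, the controls had 13.64 to 15.58 and the treated rats 12.12, 10.01, 9.16 and 7.55, which gave -4.95 ± 0.80 (limma, adjusted p = 0.0241). Hbb-bs fell by 4.46 ± 0.76 (limma, adjusted p = 0.0362), from 12.65 to 14.26 in the controls to 11.22, 9.41, 8.89 and 6.85. Treated rat 1 was highest and treated rat 4 lowest each time. Probes for genes as alike as the beta globins may read each other's transcripts, so these are not separate measurements. A second cluster of Hbb-b1 passed as well (-3.88 ± 0.67, limma, adjusted p = 0.0378). So did a cluster without a symbol, TC0100002240, at 8.83 to 10.66 in the controls and 3.70 to 7.05 in the treated rats, and a cluster with several symbols, TC1000004400, at 17.69 to 18.53 and 9.57 to 16.66.

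Other red cell genes did not pass, and the following were named after their values had been seen. Hba-a3, another alpha chain, was at 11.25 to 12.70 in the controls and 9.87, 8.52, 7.37 and 5.55 in the treated rats (-4.22 ± 0.78, limma, adjusted p = 0.0544). Hbb differed by -2.09 ± 0.40 (limma, adjusted p = 0.0644). Alas2, the erythroid enzyme that starts heme synthesis, was at 7.93 to 9.13 in the controls and 6.24 to 7.10 in the treated rats (-2.04 ± 0.52, limma, adjusted p = 0.242). Lgals5, a galectin of rat reticulocytes, differed by -1.69 ± 0.38 (limma, adjusted p = 0.158), and Slc4a1, the anion exchanger of the red cell membrane, by -0.55 ± 0.25 (limma, adjusted p = 0.600). The groups did not overlap in any of these 5 genes. Of the 19 measured genes of the globin and red cell list, 4 passed, all lower (0.0588% of all genes), and 17 were below 0 (55.3% of all genes). The other 2 were above 0, the highest being Hbg1 at 0.24. At an unadjusted p under 0.05 (limma), 9 were lower and 1 was higher, against 5.73% and 2.62% of all genes. All treated rats were below all controls in 8 (4.33% of all genes). The median difference was -0.34, against -0.02 over all genes. The mean of the list was 8.65, 8.87, 9.32 and 9.31 in the controls and 8.18, 7.52, 7.40 and 6.86 in the treated rats, with no overlap. That mean includes the globins past the test, so it is not separate from their calls. The beta globins in the counts are not separate measurements either. In bulk tissue, fewer cells of a type and less RNA in each cell cannot be told apart. The amount of blood left in each piece of tissue was not measured on the array. The endothelium and pericyte list, whose genes mark the vessel wall, had means of 9.28 to 9.38 in the controls and 9.33, 9.27, 9.11 and 8.97 in treated rats 1 to 4, and the part of vessel content in the globin differences was not tested.

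**Figure D1:**
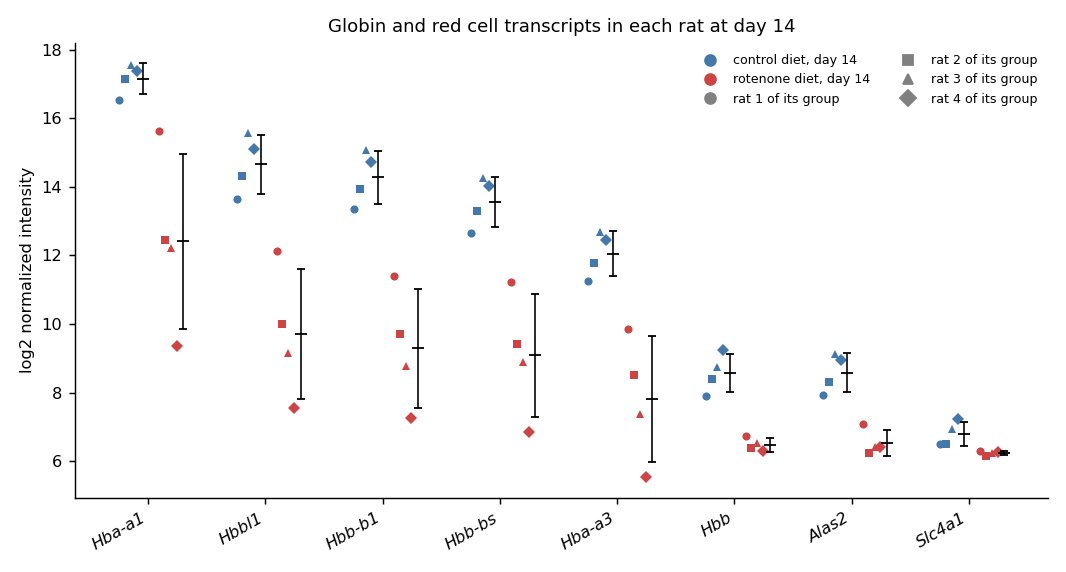
Log2 normalized intensity (y axis) of 8 globin and red cell genes (x axis) in the 4 control rats (blue) and the 4 treated rats (red) of day 14; marker shapes number the rats within a group and black bars give the mean ± SD. The groups do not overlap in any of the 8 genes, against 6.24% of all genes, and in Hba-a1 the treated rats spread from 9.35 to 15.61. Hba-a3, Hbb, Alas2 and Slc4a1 were chosen after their values had been seen.

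The other genes past the test differed by smaller amounts, with far less spread. Capn6, a calpain without protease activity that stabilizes microtubules, was at 8.65, 7.82, 8.37 and 8.16 in the controls and at 7.24, 6.34, 6.80 and 6.80 in the treated rats. All treated rats were below the lowest control. It fell by 1.45 ± 0.21, or 2.74 times (limma, adjusted p = 0.017). Mpzl1, a cell surface glycoprotein related to myelin protein zero, was at 11.38 to 11.71 in the controls and 10.79 to 11.06 in the treated rats (-0.63 ± 0.11, limma, adjusted p = 0.0484). Abhd15, an alpha/beta hydrolase domain protein, was at 8.16 to 8.58 and 7.66 to 7.93 (-0.63 ± 0.11, limma, adjusted p = 0.0418). Slc15a4 encodes a transporter that moves histidine and small peptides out of lysosomes. Its controls had 9.51, 9.58, 9.79 and 9.54 and its treated rats 9.21, 9.01, 9.09 and 9.11 (-0.50 ± 0.08, limma, adjusted p = 0.0241). Lgi4, a secreted protein needed for peripheral myelination, was at 9.99 to 10.15 and 9.43 to 9.66 (-0.50 ± 0.09, limma, adjusted p = 0.0418).

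Znf750, a factor of epidermal differentiation, was the 1 gene that rose. It was at 5.38, 5.59, 5.16 and 5.33 in the controls and at 6.65, 5.73, 6.33 and 5.95 in the treated rats, a difference of 0.80 ± 0.15 (limma, adjusted p = 0.0492). All of these values lie below the median level of all genes, 7.34, and the gap between the highest control and the lowest treated rat was small. Among the clusters with no symbol, the largest differences besides TC0100002240 were TC1500002172 among the lower (9.19 to 9.72 in the controls, 7.87 to 8.54 in the treated rats; -1.27 ± 0.18, limma, adjusted p = 0.014) and TC0200001135 (0.81 ± 0.15, adjusted p = 0.0484) and TC0700002709 (0.79 ± 0.13, adjusted p = 0.0241) among the higher.

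**Figure D2:**
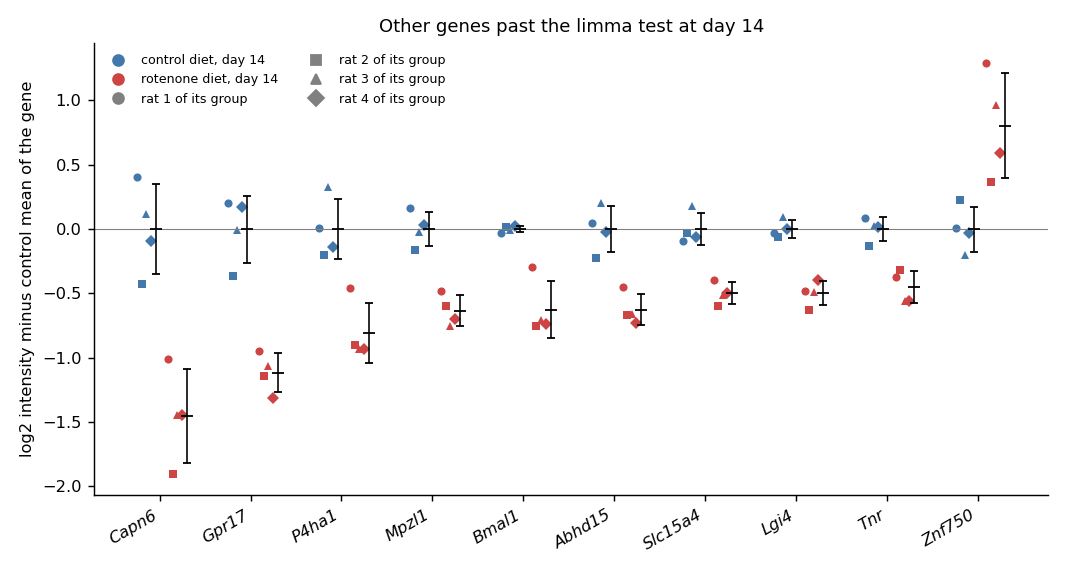
Log2 intensity minus the control mean of the gene (y axis) for the 10 genes past the limma test other than globins (x axis), in 4 control rats (blue) and 4 treated rats (red) of day 14; marker shapes number the rats and black bars give the mean ± SD. Capn6 lies lowest at -1.45, and Znf750 is the gene above 0, at 0.80.

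Genes of oligodendrocyte precursors had lower values throughout the list. All 15 measured genes of the list had a difference below 0, against 55.3% of all genes. Gpr17 and Tnr passed the test and 0 were higher. At an unadjusted p under 0.05, 9 were lower, against 5.73% of all genes, and the median was -0.30. Gpr17, a receptor of precursors about to mature, was at 10.65, 10.08, 10.44 and 10.62 in the controls and 9.50, 9.31, 9.38 and 9.14 in the treated rats. The groups were separated by more than the range of the treated rats. It fell by 1.12 ± 0.15, or 2.17 times (limma, adjusted p = 0.014). Tnr, the matrix glycoprotein tenascin-R, was at 11.50, 11.29, 11.44 and 11.44 and at 11.05, 11.10, 10.86 and 10.86 (-0.45 ± 0.08, limma, adjusted p = 0.0418). Olig1, a transcription factor of the whole lineage, had 12.81 to 13.48 in the controls and 12.36 to 12.68 in the treated rats (-0.73 ± 0.17, limma, adjusted p = 0.203). The sialidase gene Neu4 overlapped between the groups (-0.30 ± 0.11, limma, adjusted p = 0.479).

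Genes of mature oligodendrocytes and myelin had 0 of 20 past the test. Their median difference was -0.19, with 16 below 0 (55.3% of all genes) and 3 lower at an unadjusted p under 0.05 (5.73% of all genes). In 7 of the 20, all treated rats were below all controls (4.33% of all genes). The other 4 genes were above 0, Opalin being the highest at 0.315. Sema4d, a semaphorin made by oligodendrocytes, was at 11.74, 11.30, 11.68 and 11.60 in the controls and at 10.88, 10.70, 10.67 and 10.75 in the treated rats (-0.83 ± 0.16, limma, adjusted p = 0.0743). Ugt8, which makes the myelin lipid galactosylceramide, had 16.66 to 16.93 and 15.91 to 16.28 (-0.68 ± 0.20, adjusted p = 0.381). The groups were apart in both genes. Mag, the myelin-associated glycoprotein, overlapped (-0.30 ± 0.13, adjusted p = 0.597).

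Genes of the cholesterol synthesis list, which holds enzymes and the regulator gene Srebf1, did not pass the test, with 0 of 19 called. Even so, 14 of the 19 had all treated rats below all controls, where 4.33% of all genes did. Of the 19, 18 were below 0 (55.3% of all genes), all but Srebf1 at 0.08. Their median was -0.36, with 12 lower and 0 higher at an unadjusted p under 0.05, against 5.73% and 2.62% of all genes. Lss, which closes the ring to lanosterol, was at 11.39, 10.95, 10.92 and 11.05 in the controls and at 10.24, 10.30, 10.27 and 10.08 in the treated rats (-0.86 ± 0.19, limma, adjusted p = 0.158). Cyp51, the next enzyme, was at 15.14 to 15.46 and 14.41 to 14.76 (-0.69 ± 0.20, limma, adjusted p = 0.358). Dhcr7, which makes cholesterol from its last precursor, differed by -0.53 ± 0.17 (limma, adjusted p = 0.448), and Sc5d, a desaturase of the same stretch, by -0.34 ± 0.13 (limma, adjusted p = 0.539). Srebf2, the regulator of these enzymes, overlapped between the groups, at -0.13 ± 0.07 (limma, adjusted p = 0.670).

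Of 20 genes of fatty acid synthesis and oxidation, 0 passed, 10 were lower (5.73% of all genes) and 0 higher at an unadjusted p under 0.05, and in 9 all treated rats were below all controls (4.33% of all genes). Their median was -0.19. The desaturases Fads1 (14.88 to 15.13 in the controls, 14.44 to 14.79 in the treated rats; -0.41 ± 0.09, limma, adjusted p = 0.154) and Fads2 (-0.42 ± 0.10, adjusted p = 0.203) had the smallest p of the list. Fatty acid synthase, Fasn, was at 13.29, 13.22, 13.28 and 13.95 in the controls and 12.98, 12.70, 12.75 and 12.79 in the treated rats (-0.63 ± 0.15, limma, adjusted p = 0.207). Control rat 4 stood above the other controls. Acadvl, an enzyme of beta-oxidation, differed by -0.30 ± 0.07 (limma, adjusted p = 0.233).

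**Figure D3:**
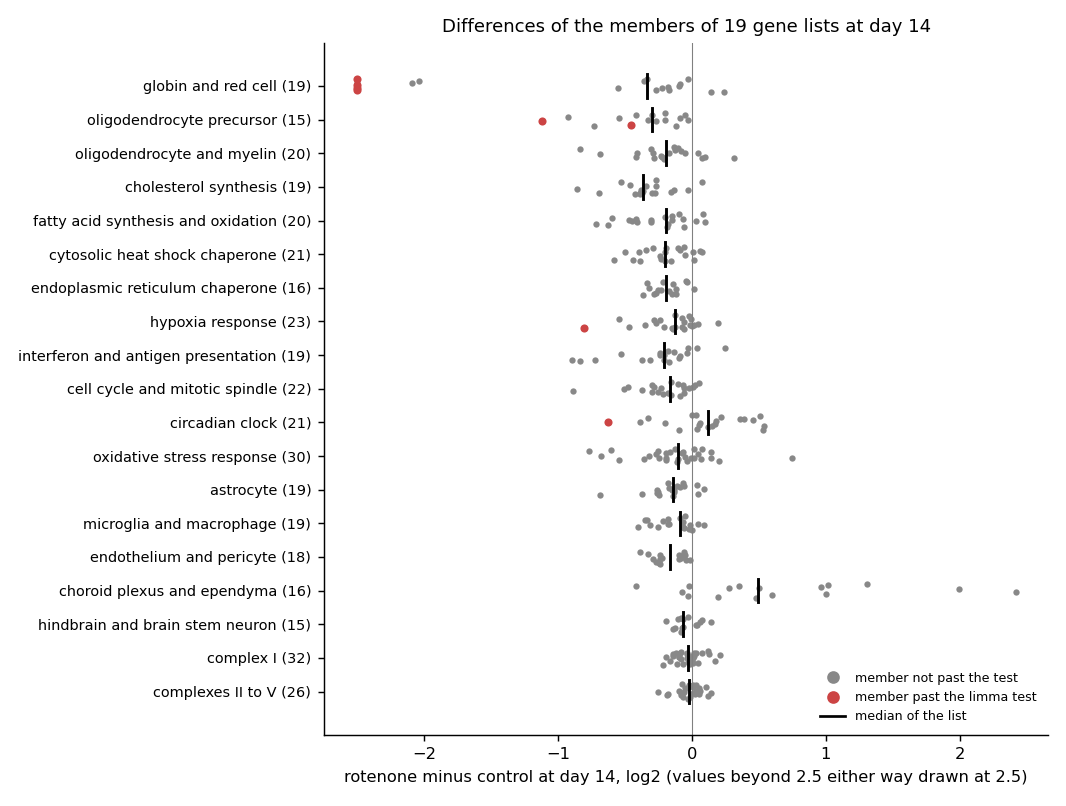
Rotenone minus control at day 14 on the log2 scale (x axis) for the measured genes of 19 lists (y axis, number measured in brackets), with values beyond 2.5 drawn at 2.5; red points passed the limma test, grey points did not, and a black line marks the median of the list. The cholesterol synthesis median lies at -0.36 and the complex I median at -0.03.

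The circadian clock runs on Bmal1 and its partners, which activate the Per, Cry, Nr1d1 and Nr1d2 genes and Dbp, whose products in turn set the phase of Bmal1. Bmal1 was at 9.51, 9.56, 9.53 and 9.57 in the controls, a range of under 0.1, and at 9.25, 8.79, 8.84 and 8.80 in the treated rats. Treated rat 1 stood apart from the other treated rats and was still below every control. Bmal1 fell by 0.63 ± 0.10, or 1.54 times (limma, adjusted p = 0.0241), and it was the 1 gene called among 21. Npas2, a paralog of the Bmal1 partner Clock, was at 9.76 to 9.94 and 9.40 to 9.55 (-0.38 ± 0.08, limma, adjusted p = 0.126).

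Genes on the other arm of the clock had higher values, none past the test. Nr1d2, which encodes REV-ERB beta, was at 12.09, 12.09, 12.12 and 12.25 in the controls and at 12.52, 12.75, 12.69 and 12.71 in the treated rats (0.53 ± 0.11, limma, adjusted p = 0.116). Dbp, a transcription factor of clock output, was at 9.37 to 9.59 and 9.94 to 10.15 (0.54 ± 0.12, limma, adjusted p = 0.147). Nr1d1, Per3 and Bhlhe40, named after their values had been seen, differed by 0.51, 0.36 and 0.45, and the groups did not overlap in any of these 5 genes. Over the list, 7 genes were higher and 3 lower at an unadjusted p under 0.05, against 2.62% and 5.73% of all genes, and the groups did not overlap in 6 higher and 3 lower genes, against 1.91% and 4.33%. The list's median, 0.12, was 0.07 without treated rat 2, 0.18 without control rat 3 and -0.03 when arrays were centred on their median. All rats of a group may share an hour of necropsy, which the sources used here do not give, so phase and treatment cannot be told apart from these values.

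Cirbp and Rbm3, RNA-binding proteins known for their rise in cooled cells, had the smallest p among higher genes after Znf750. Cirbp was at 9.36, 9.39, 9.22 and 9.41 in the controls and at 9.57, 9.69, 9.89 and 9.98 in the treated rats (0.44 ± 0.08, limma, adjusted p = 0.0544). Rbm3 was at 8.86, 9.12, 8.86 and 9.09 and at 9.37, 9.60, 9.93 and 9.86 (0.71 ± 0.13, limma, adjusted p = 0.0644). Neither passed the test, and neither overlapped between the groups, which held for 1.91% of all genes in that direction. The other higher genes closest to the threshold were Orc4, a subunit of the replication origin complex (0.36 ± 0.07), Sf3a3, a splicing factor (0.33 ± 0.07), the olfactory receptor gene Or4c129 (0.81 ± 0.16), the myosin gene Myh15 (0.78 ± 0.16) and Gnl2, a GTPase of the nucleolus (0.30 ± 0.06), with adjusted p between 0.0908 and 0.126 (limma). Or4c129 and Myh15 were near the floor of the array, with control means of 5.27 and 4.49.

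Of 21 cytosolic heat shock chaperones, 0 passed, 9 were lower (5.73% of all genes) and 0 higher at an unadjusted p under 0.05, and the median was -0.20. Fkbp4, a partner of Hsp90, was at 12.00, 12.02, 12.25 and 12.16 in the controls and at 11.80, 11.66, 11.71 and 11.70 in the treated rats (-0.39 ± 0.08, limma, adjusted p = 0.0657). Hsph1, the chaperone Hsp110, was at 13.44 to 13.85 and 13.02 to 13.33 (-0.50 ± 0.11, limma, adjusted p = 0.126), and Chordc1, a further Hsp90 partner, differed by -0.38 ± 0.11 (limma, adjusted p = 0.322). The groups were apart in these 3 genes, which were chosen by p. Over the list, all treated rats were below all controls in 6 genes (4.33% of all genes). Among 16 chaperones of the endoplasmic reticulum, 0 passed, 7 were lower (5.73% of all genes) and 0 higher at an unadjusted p under 0.05, and the median was -0.19, or -0.13 without treated rat 2. Pdia4, a protein disulfide isomerase, differed by -0.37 ± 0.11 (limma, adjusted p = 0.358) and Hspa5, the chaperone BiP, by -0.32 ± 0.10 (limma, adjusted p = 0.404). Both were chosen by p, and in both the lowest control lay above the highest treated rat. That held for 3 of the 16 genes (4.33% of all genes). Hyou1, a chaperone of the same compartment, was at 10.91 to 11.12 and 10.69 to 10.90 (-0.25 ± 0.08, limma, adjusted p = 0.448).

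**Figure D4:**
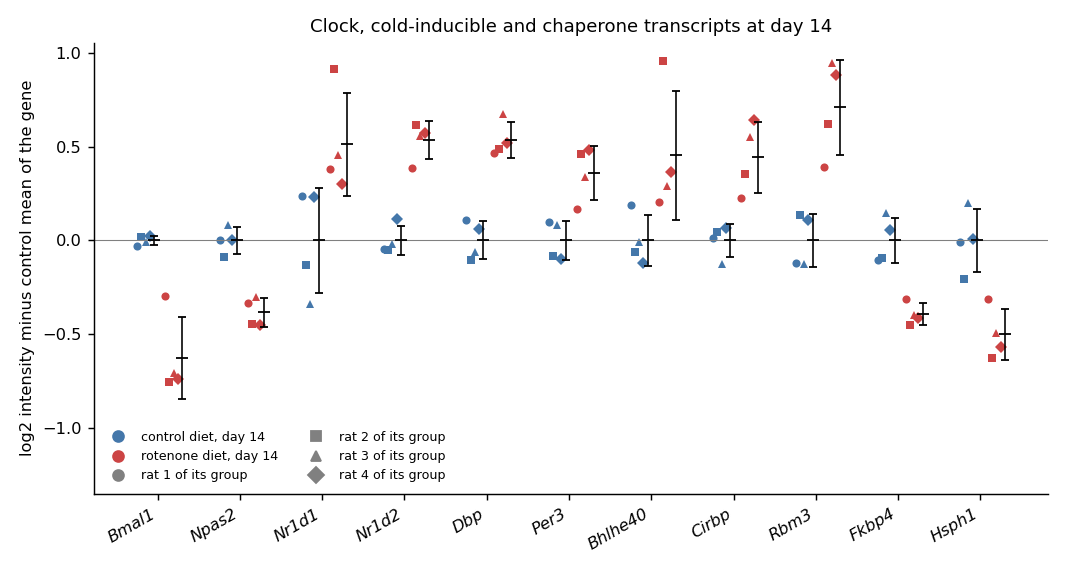
Log2 intensity minus the control mean of the gene (y axis) for 7 clock genes, the cold-inducible genes Cirbp and Rbm3 and the chaperone genes Fkbp4 and Hsph1 (x axis), in 4 control rats (blue) and 4 treated rats (red) of day 14, with mean ± SD in black. Bmal1 passed the test, and the other 10 genes did not. The groups do not overlap in any of the 11, against 6.24% of all genes. The 11 were chosen by p or after their values had been seen.

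P4ha1 was the gene past the test among 23 genes of the hypoxia response. It encodes the catalytic subunit of the prolyl hydroxylase that matures collagen, and the transcription factor Hif1 activates it in low oxygen. It was at 12.25, 12.04, 12.56 and 12.10 in the controls and at 11.78, 11.34, 11.30 and 11.31 in the treated rats. Treated rat 1 was above the other treated rats, which lay within 0.1 of each other. P4ha1 fell by 0.81 ± 0.13, or 1.75 times (limma, adjusted p = 0.0241). Vhl, which marks Hif proteins for degradation, was at 8.97 to 9.26 and 8.40 to 8.83 (-0.47 ± 0.09, limma, adjusted p = 0.0908). Ndrg1, a stress gene that Hif1 activates, differed by -0.54 ± 0.19 (adjusted p = 0.479), and Hk2, a hexokinase, by -0.27 ± 0.09 (adjusted p = 0.421). Over the list, 5 genes were lower and 1 higher at an unadjusted p under 0.05, against 5.73% and 2.62% of all genes, and the median was -0.12, or -0.08 without treated rat 3. P4ha1 was also the 1 gene past the test among 20 of the meninges and extracellular matrix list, whose mean was 8.05, 8.21, 8.86 and 8.82 in the controls and 8.88, 7.90, 8.27 and 8.31 in the treated rats. The part of that tissue in the difference of P4ha1 was not tested.

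Of the 19 interferon and antigen presentation genes, 0 passed, 6 were lower and 1 higher at an unadjusted p under 0.05, against 5.73% and 2.62% of all genes, and the median was -0.20, or -0.13 without control rat 4. Stat2, which carries the interferon signal, was at 8.95 to 9.13 in the controls and 8.48 to 8.80 in the treated rats (-0.37 ± 0.10, limma, adjusted p = 0.332). Rsad2, an antiviral protein, differed by -0.84 ± 0.29 (limma, adjusted p = 0.478) and the regulator Irf7 by -0.53 ± 0.18 (limma, adjusted p = 0.473). RT1-Da, a class II antigen of the rat, overlapped between the groups (-0.72 ± 0.26, limma, adjusted p = 0.478). Among 19 microglia and macrophage genes, 0 passed and 1 was lower at an unadjusted p under 0.05, near the share of 5.73% over all genes. It was Tyrobp, the adaptor of microglial receptors (7.23 to 7.36 in the controls, 6.81 to 7.07 in the treated rats; -0.34 ± 0.12, limma, adjusted p = 0.478).

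Of 22 genes of the cell cycle and mitotic spindle, 0 passed, with 7 lower (5.73% of all genes) and 0 higher at an unadjusted p under 0.05 and a median of -0.17. Mki67, a protein of dividing cells, was at 6.93, 6.61, 7.12 and 7.47 in the controls and at 6.56, 5.98, 6.06 and 5.96 in the treated rats (-0.89 ± 0.24, limma, adjusted p = 0.324). The highest treated rat was just below the lowest control. Plk1, a kinase of the mitotic spindle, differed by -0.30 ± 0.07 (limma, adjusted p = 0.233), and Ccna2 and Top2a, a cyclin and the topoisomerase of dividing cells, overlapped between the groups.

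Complex I, which rotenone blocks, showed no call in its own subunits. Of 32 measured subunit genes, 0 passed and 0 had an unadjusted p under 0.05 in either direction, against 8.35% of all genes. Their differences ran from -0.21 to 0.21 with a median of -0.03. Centring the arrays on their median in place of quantile normalization moved the median of all genes from -0.02 to -0.10, and that of complex I to -0.17. Beside that shift, the medians became -0.35 for fatty acid genes, -0.31 for endoplasmic reticulum chaperones, -0.32 for myelin, -0.27 for hypoxia, -0.26 for astrocytes, -0.27 for endothelium, -0.24 for oxidative stress and -0.38 for monoaminergic neurons. Without treated rat 2 the complex I median was 0.01. The subunit gene with the smallest p was Ndufs4 (12.44 to 12.86 in the controls, 12.74 to 13.01 in the treated rats; 0.21 ± 0.11, limma, adjusted p = 0.638). Complexes II to V had 0 of 26 past the test, with 1 at an unadjusted p under 0.05, and a median of -0.02, or 0.01 without treated rat 2. The 15 measured tubulin genes had 0 past the test and a median of -0.02, or 0.01 without treated rat 2. Of 12 genes of inherited Parkinson disease 0 passed, and their median was 0.00, or 0.05 without treated rat 2. In the monoaminergic neuron list 0 of 16 passed, 15 were below 0 (55.3% of all genes) and the median was -0.23, which was -0.08 without treated rat 2 and -0.39 without treated rat 3. Slc18a2, the vesicle transporter for monoamines, was at 9.08 to 9.40 in the controls and 8.57 to 8.91 in the treated rats (-0.51 ± 0.22, limma, adjusted p = 0.571).

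Among 30 oxidative stress genes, 0 passed, 1 was higher and 5 were lower at an unadjusted p under 0.05, against 2.62% and 5.73% of all genes, and the median was -0.11, or -0.05 without treated rat 2. The higher one was Txnip, the inhibitor of thioredoxin, which also responds to glucose. It was at 10.50, 10.87, 10.91 and 10.98 in the controls and at 11.56, 11.56, 11.47 and 11.66 in the treated rats. The groups were apart by more than the range of the treated rats, and the difference was 0.75 ± 0.20 (limma, adjusted p = 0.292). Me1, the malic enzyme that makes NADPH, differed by -0.36 ± 0.11 (limma, adjusted p = 0.415) and Hmox1, heme oxygenase 1, by -0.32 ± 0.11 (limma, adjusted p = 0.475). The integrated stress response had 0 of 16 past the test and a median of 0.01, or -0.03 without treated rat 2; its hormone gene Fgf21 overlapped between the groups at a low level (0.35 ± 0.11, limma, adjusted p = 0.448). The immediate early genes had 0 of 17 past the test, with Jun at -0.56 ± 0.18 (limma, adjusted p = 0.409) and Npas4 at -0.37 ± 0.12 (limma, adjusted p = 0.448), both overlapping. Lox, which crosslinks collagen, differed by -0.27 ± 0.20 (limma, adjusted p = 0.786).

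Markers of the other cell types in the tissue were counted the same way. The astrocyte list had 0 of 19 past the test, 4 lower (5.73% of all genes) and 0 higher at an unadjusted p under 0.05, and a median of -0.14, or -0.08 without control rat 3. Gfap, the filament protein of astrocytes, was at 13.61, 13.45, 13.97 and 13.61 in the controls and at 13.06, 12.92, 12.90 and 13.01 in the treated rats, which did not overlap (-0.69 ± 0.27, limma, adjusted p = 0.529). The water channel gene Aqp4 (-0.37 ± 0.13, limma, adjusted p = 0.483) and the glutamate transporter gene Slc1a2 (-0.25 ± 0.10, limma, adjusted p = 0.532) overlapped. All 18 endothelium and pericyte genes had a difference below 0 (55.3% of all genes), with 0 past the test, 3 lower at an unadjusted p under 0.05 (5.73% of all genes) and a median of -0.16, or -0.09 without treated rat 4. Rgs5, a pericyte gene, was at -0.39 ± 0.15 (limma, adjusted p = 0.536) and Tek, a receptor of endothelium, at -0.29 ± 0.12 (limma, adjusted p = 0.571). The choroid plexus list had 0 of 16 past the test and a median of 0.49, which was 0.15 without treated rat 1. Its genes Folr1 (0.48 ± 0.22, limma, adjusted p = 0.606), Cldn2 (0.96 ± 0.44, limma, adjusted p = 0.608) and Ttr (2.42 ± 2.03, limma, adjusted p = 0.818) overlapped between the groups. In the cerebellum list 0 of 17 passed; Gabra6, a receptor subunit of cerebellar granule cells, was at 6.29 to 10.15 in the controls and 5.98 to 8.43 in the treated rats. With the means of the choroid plexus and cerebellum lists as covariates, 48 clusters passed, 22 of them among the 25.

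The same genes were compared at the earlier days, which used other rats and other controls. At day 1 the cerebellum list had a median difference of -1.79. The part of that tissue in the day 1 values was not tested. At day 1 and at day 3, 0 clusters passed the limma test, with 5101 (7.41%) and 2545 (3.7%) at an unadjusted p under 0.05. Of the 25 clusters, 18 had a difference of the same sign at day 3, 1 of them at an unadjusted p under 0.05, and 9 had the same sign at day 1. At day 1, 6 of the 25 had a difference in either direction at an unadjusted p under 0.05, against 7.41% of all clusters. The signs were not counted over all clusters. P4ha1 was lower at all 3 days, by -0.35 ± 0.13 at day 1, -0.42 ± 0.13 at day 3 and -0.81 at day 14, with adjusted p above the threshold at the first 2. Hbb-b1 was at 1.06 ± 0.81, -1.36 ± 0.81 and -4.99, and Gpr17 at 0.25 ± 0.16, -0.24 ± 0.16 and -1.12. Bmal1 was at -0.23 ± 0.10 and 0.02 ± 0.10 before it fell. Rbm3 had -0.08 ± 0.13, 0.35 ± 0.13 and 0.71, and Cd74, the chain that guides class II antigens and a gene named after its values had been seen, had 0.79 ± 0.34, 0.77 ± 0.34 and -0.89 ± 0.34.

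The difference between days was itself tested. Against day 3, 0 clusters passed (0%), with 3207 at an unadjusted p under 0.05 (4.66%), among them all 25. Against day 1, 4640 had an unadjusted p under 0.05 (6.74%) and 1 cluster passed (0.00145%), TC1500002172, whose difference at day 14 was lower by -1.84 (limma, adjusted p = 0.0198). TC0100002240 and Gpr17 (adjusted p = 0.0561 each) and Capn6 and Abhd15 (adjusted p = 0.0521 each) did not pass. These 25 had been chosen at day 14, so their interaction counts are not independent of the call. The controls of day 1 held cerebellar transcripts to different degrees, with Gabra6 between 8.72 and 15.49, and without control rats 1 and 3 of that day the test against day 1 called 0.

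**Figure D5:**
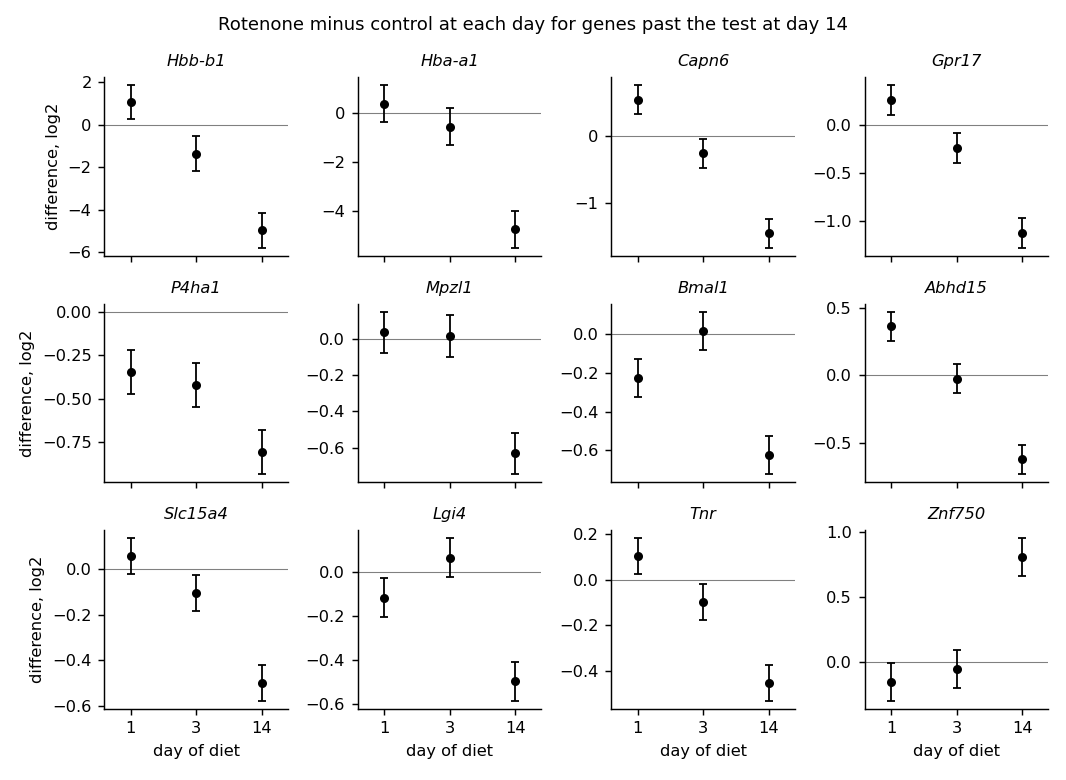
Rotenone minus control on the log2 scale (y axis, a scale for each gene) at day 1, 3 and 14 (x axis) for 12 genes past the test at day 14; points are limma estimates and bars their SE, from 4 rats against 4 on each day. P4ha1 lies below 0 on all 3 days, and Znf750 above 0 on day 14. The cerebellum list had a median difference of -1.79 at day 1, whose part in the day 1 points was not tested.

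A filter modelled on that of the methods was also run on the quantile normalized values, without the factor of time alone. A cluster had to reach an ANOVA P below 0.001 (treatment, or treatment by time), a Kruskal-Wallis P below 0.05 at day 14 and a mean ratio of the treated rats to the control median of day 14 of 1.8 or more in either direction. This left 13 clusters (0.0189%), 11 lower (0.016%) and 2 higher (0.00291%), of which 12 were among the 25. The named ones were Hba-a1, Hbb-b1 with both its clusters, Hbbl1, Capn6, Gpr17 and Znf750. For single genes, an exact two-sided permutation test of 4 rats against 4 has 70 arrangements and can give no p below 0.0286, which any gene without overlap of the groups has. The 14 genes past the limma test, chosen on the same values, had it, as did 6.24% of all genes.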

How the data were processed

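Total RNA of the brain stem of single rats was hybridized to Affymetrix rat transcriptome arrays (RTA 1.0), 1 array for each rat. The deposited values are normalized intensity on a linear scale for 70580 entries. Per the study's methods and the submitters' processing notes, the authors summarized probes by RMA with signal space transformation and a correction for GC content.

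For this report, log2 of the deposited intensity was taken and the 24 arrays were quantile normalized, since their medians ran from 70.7 to 82.6. Control probe sets (1738) were removed. The other 68842 clusters entered a limma model (version 3.58.1, R 4.3.3) of the 6 group means, with 18 residual and 3.24 prior degrees of freedom, and p-values were adjusted by the Benjamini-Hochberg method over all clusters with a threshold of 0.05. Scripts used Python 3.11.15, Biopython 1.88 and matplotlib 3.10.9. The script was tested on simulated data. Of the clusters, 23446 had 1 gene symbol in the platform annotation, 505 several and 44891 none; 1 symbol was updated by its gene ID, and 1450 clusters had values identical to those of another. The cluster with the highest mean stood for its gene, which gave 22093 genes. Promoters came from RefSeq tables of GRCr8, and no genome of the array's build was used. The precision is limited by 4 arrays in each group, depth has no counterpart on an array, and 0 columns were left unused.

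Named genes were those past the test with all treated rats on 1 side of the control mean, at most 12 in each direction by size. Where fewer than 5 passed, the 10 with the smallest p in that direction were added, as were up to 4 members of each list by p, no more than 2 unnamed clusters either way, and genes that the paper names for any organ. Genes of these groups with little to describe were left out of the text. Hba-a3, Hbb, Alas2, Slc4a1, Lgals5, Ttr, Kl, Gabra6, Nr1d1, Per3, Bhlhe40, Cd74, the second cluster of Hbb-b1 and TC1000004400 were described after their values had been seen, by the rule or outside it. The comparison and the gene lists were chosen with earlier results of these data known. The numbers of rats are those of the labels. The alternatives were other normalizations, fits and filters, a replicate block, tissue covariates and each array left out.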

Additional observations from a re-analysis of the deposited data

Results flagged for a closer look

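In 15 of 250 groups of 4 rats, the gap between 1 rat and the nearest other was at or above Dixon's critical share of the whole range of the group. Chance flags about 1 in 20 groups. Treated rat 1 stood above the other treated rats in P4ha1 (11.78), Bmal1 (9.25), Hspa2 (5.83), RT1-Da (6.65), Mki67 (6.56) and the mean of the hypoxia list (10.25), and below them in TC0200001135 (6.40). Treated rat 2 was lowest in the means of the hindbrain (8.05), monoaminergic neuron (8.24) and integrated stress response (8.87) lists. Control rat 3 was highest in Sc5d (13.9) and in the mean of the hypoxia list (10.43) and lowest in Fgf21 (5.65). Control rat 4 was highest in Fasn (13.95) and Nr1d2 (12.25). The differences of TC1500002172 at day 14 and at day 1 themselves differed, by -1.84 (limma, adjusted p = 0.0198).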

How the results depend on the processing

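The 25 clusters of day 14 became 38 with a mean-variance trend and robust prior, 51 among clusters above the median level, 50 among those with 1 symbol, 48 with tissue covariates and 0 in the 8 arrays of day 14 alone (4877 at an unadjusted p under 0.05). Without 1 array the count ran from 0 to 49. It was 0 without control rat 3 or 4 or treated rat 3 or 4 of day 14, with 4257, 4878, 4263 and 4819 at an unadjusted p under 0.05, and 7 without treated rat 2. Of the other arrays, it was 49 without control rat 3, 14 without control rat 1, 13 without control rat 2 or 4 and 14 without treated rat 2 of day 1. It was 13 without control rat 2 or 3 and 15 without treated rat 1 of day 3, and 16 without control rat 1 of day 14. With the replicate block it was 16, all among the 25. Rats of the same number did not deviate together (correlations 0.003, 0.038, -0.027 and 0.032), and no number matched its own best. With 4 numbers this cannot exclude a shared cage or day, which the sources used here do not give. In the main fit the numbers only name rats. The other settings gave 18 to 36, the 18 after leaving out treated rat 1 and control rat 4, a choice made after seeing the data.

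The difference between day 14 and day 3 had 0 clusters, and 0 to 3 without 1 array, the 3 without treated rat 1 of day 14. That between day 14 and day 1 had 1, against 2 on the values as deposited, 0 with median centring, 5 with the trend, 0 without moderation, 5 above the median level, 3 with 1 symbol, 4 with array weights, 0 without control rats 1 and 3 of day 1, 0 with covariates and 5 in the setting added after seeing the data. Without 1 array it ran from 0 to 12. The filter modelled on the study's gave 3 clusters with treatment alone in the ANOVA in place of 13, and 8 to 23 without 1 array. The cause of these changes was not tested, beyond the fewer samples or clusters that a setting holds. Over 92 genes and clusters, 3083 of 3390 alternative values kept their direction and side of the threshold, 216 lost the call, 90 gained it and 1 reversed, Ttr, at -0.80 with covariates. Most of the 92 were not past the test in the main fit and had no call to lose. All 216 losses fell on those that were past it, so the pooled share does not measure how stable the calls were. Gpr17 lost its call in 5 of 37 settings, Hba-a1, Hbbl1, Capn6, P4ha1, Bmal1 and Slc15a4 in 6, and Hbb-b1 in 7. Other genes lost it more often, Hbb-bs in 15 of 37, Abhd15 in 19, Lgi4 and Tnr in 22, Mpzl1 in 23, and Znf750 in 26 of 36. Signal near the floor of the array limits genes such as Znf750.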
